A study of Mus musculus with 149 samples.

Results

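The immunoglobulin segment and joining chain genes were followed in the lungs of mice challenged with the cytokine TSLP. They were taken as every probe set whose annotated symbol started with Ighv, Igkv, Iglv, Ighg, Igha, Igkc or Iglc, or was Ighm, Ighd, Ighe or Jchain. On the array, 13 probe sets of 7 genes met this rule, out of 22892 probe sets that were given a single symbol (13494 genes). The 13 were 5 probe sets for Ighm, 3 for Igha and 1 each for Jchain, Igkv14-111, Igkv15-103, Igkv6-20 and Iglv1. A further probe set, 1427758_x_at, carries several symbols of this kind (Ighv14-2, Ighg3 and Ighm) and is described without a gene name. Ighg, Ighd, Ighe, Igkc, Iglc and Ighv genes had no probe set of a single symbol here, so they were not analysed on their own.

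An antibody is built of paired heavy and light chains, and each chain joins a variable region made from a V segment to a constant region. The constant region of the heavy chain sets the class: Ighm encodes that of IgM, the first class a B cell makes, and Igha that of IgA, the class secreted onto mucosal surfaces such as the airway. The joining chain, encoded by Jchain, links IgM or IgA into polymers that epithelia can transport. Antibody-secreting plasma cells transcribe the heavy and light chain genes they use at very high rates. V segments differ between B cell clones, so the transcript level of a single V segment depends on which clones are present.

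Whole-lung RNA of balb/c mice was measured on Affymetrix 3' arrays, and the deposited values are on a log2 scale, so a difference of 1 is a doubling. OVA-sensitized mice (76 arrays), which had been immunised with ovalbumin, were set against naive mice (73 arrays). Within each, mice were challenged with saline, with buffer (0.1% MSA) or with 150, 500 or 1500 ng TSLP, and lungs were taken at 6 or 24 h. This gave 20 groups of 6 to 8 arrays, 1 animal per array. The labels name neither the schedule and route of sensitization nor the age and sex of the mice. A probe set passed the test when its adjusted p was under 0.05, by limma with Benjamini-Hochberg adjustment over all 26156 probe sets tested.

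Array medians lay between 8.97 and 9.16, and the lung genes Sftpc (alveolar type 2 cells), Scgb1a1 (club cells) and Ager (alveolar type 1 cells) were at 13.7 or above on every array. Keratins of the gullet, Krt4 and Krt13, were both over 2 log2 units above their medians on 6 arrays: 1 of 8 in the OVA buffer group, 2 of 6 in the naive buffer group, 1 of 8 in the OVA 1500 ng group and 1 of 8 in the naive 150 ng group, all at 6 h, and 1 of 7 in the naive buffer group at 24 h. The difference between 3' and 5' probe sets of beta-actin, which grows as RNA shortens, had group medians of 1.26 to 2.57 at 6 h and 1.21 to 1.45 at 24 h. In bulk lung, fewer cells of a type and less RNA per cell cannot be told apart.

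Of all the arrays, 2 went against their sensitization label, both at 500 ng TSLP and 6 h. The array labelled OVA replicate 3 had an Ighm level (1425247_a_at) of 9.50, against 13.05 to 14.35 on the other 75 OVA arrays, and a Chil4 level of 6.67, against 8.73 to 13.90. The array labelled naive replicate 8 had an Ighm level of 13.56, against 8.51 to 11.55 on the other 72 naive arrays, and a Chil4 level of 11.26, against 5.50 to 10.08. Chil4 (a chitinase-like protein of allergic lung) and Clca1 (a goblet cell protein) are not immunoglobulin genes. Clca1 was at 10.8 on the OVA array, against 11.6 to 14.1 on the other OVA arrays, and at 13.2 on the naive array, against 4.18 to 11.2 on the other naive arrays. Both arrays were kept under their labels, and several of the results they bear on are also given without them. As they were picked in part by their Ighm levels, Ighm results without them are not independent of that choice.

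On build GRCm38.p6, RefSeq places the constant regions Ighm at chr12:113418826-113422730 and Igha at chr12:113256204-113260236, in the heavy chain locus. The kappa V segments lie on chromosome 6, Igkv14-111 at chr6:68256404-68256869, Igkv15-103 at chr6:68437468-68437925 and Igkv6-20 at chr6:70335841-70336479. The lambda V segment Iglv1 is at chr16:19085017-19085460, and Jchain, outside the immunoglobulin loci, is at chr5:88519809-88527897. The Jchain promoter is printed because Jchain is the member gene with a window in the RefSeq promoter table. It runs over the 250 bases before the start, on the minus strand (chr5:88527898-88528147, GRCm38.p6, 5′ to 3′).
Jchain promoter: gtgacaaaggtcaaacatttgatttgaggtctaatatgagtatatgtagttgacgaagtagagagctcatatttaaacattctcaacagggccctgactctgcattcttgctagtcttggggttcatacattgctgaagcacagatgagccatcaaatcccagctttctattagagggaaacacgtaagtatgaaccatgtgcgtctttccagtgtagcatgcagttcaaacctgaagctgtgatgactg
The octamer ATGCAAAT and the heptamer CTCATGA, elements of immunoglobulin promoters, were searched on both strands; neither contains the other. Neither was found in the Jchain window of 250 bases before and 50 after the start. Over the 32851 windows of the table, 1.74% held the octamer and 2.67% the heptamer.

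Most of these genes were higher in OVA mice. Averaged over the 10 pairs of groups at the same challenge and time, 12 of 13 probe sets rose in OVA mice and none fell, where 27.5% of all probe sets tested were called higher. The size differed by gene: Ighm rose over 18-fold, Igkv14-111 and Jchain over 4-fold, Igkv15-103 close behind, Igkv6-20 and Iglv1 over 2-fold, and Igha by 1.36- to 1.48-fold. The probe set that did not pass was the dim Ighm probe set 1425385_a_at, with a log2 difference of 0.04 (SE 0.03, adjusted p = 0.295). The median log2 difference of the 13 was 1.92, beside -0.03 over all probe sets.

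**Figure D1:**
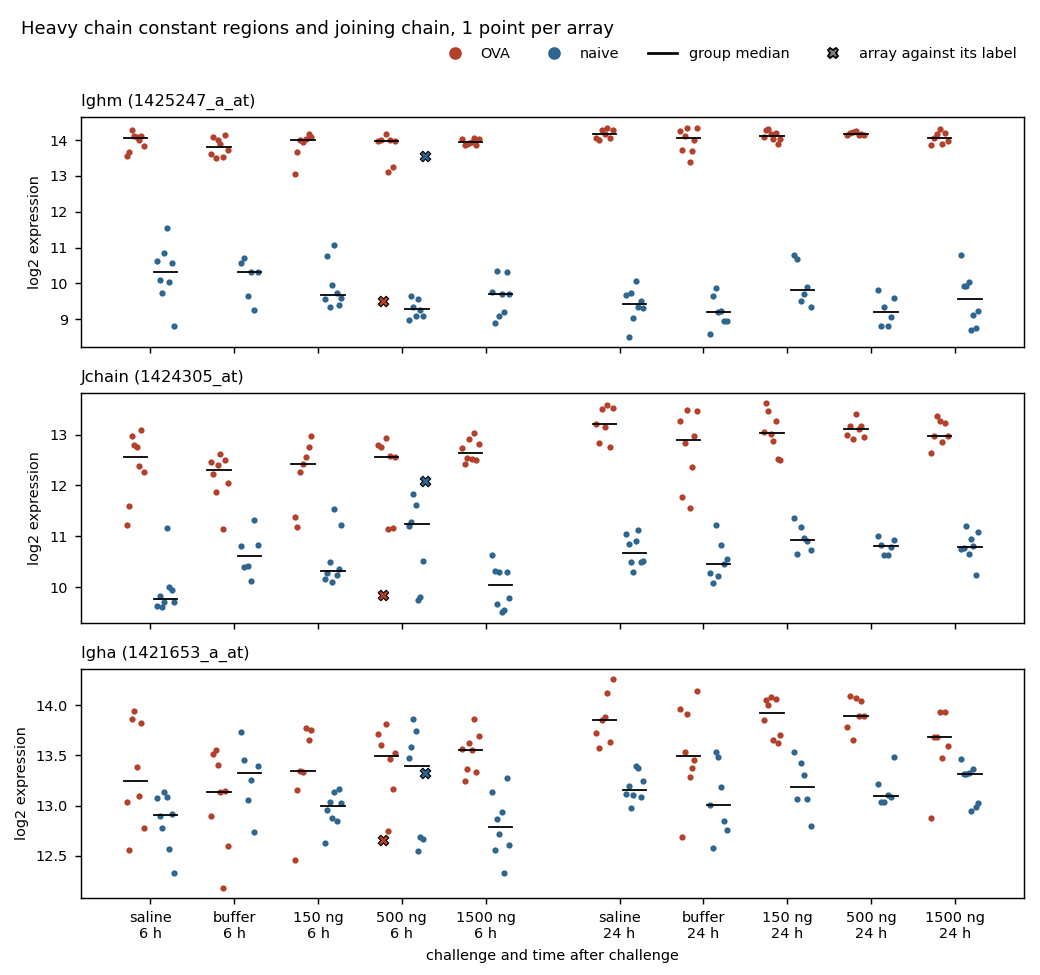
Log2 expression of Ighm, Jchain and Igha on each array, by challenge and time after challenge, with OVA mice left of naive mice and bars at group medians. Ighm OVA and naive points lie apart in 9 of 10 pairs, Jchain points in 7 of 10 and Igha points in 3 of 10. Crosses mark the 2 arrays that went against their label.

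Ighm (1425247_a_at, annotated as the IgM heavy chain) had a median between 13.80 and 14.18 in each OVA group. At 6 h its lowest, median and highest log2 levels were 13.56, 14.05 and 14.28 in OVA saline mice, against 8.80, 10.33 and 11.55 in naive saline mice. With buffer they were 13.51, 13.80 and 14.14 in OVA mice, against 9.27, 10.32 and 10.70 in naive mice. With 150 ng TSLP they were 13.05, 13.99 and 14.16 in OVA mice, against 9.35, 9.67 and 11.07 in naive mice. In each of these pairs every OVA array lay above every naive array. With 500 ng they were 9.50, 13.97 and 14.17 in OVA mice, against 8.98, 9.29 and 13.56 in naive mice, and here alone the groups overlapped, through the 2 arrays named above. Without these arrays the OVA range was 13.10 to 14.17 and the naive range 8.98 to 9.65. With 1500 ng at 6 h the levels were 13.88, 13.93 and 14.04 in OVA mice, against 8.88, 9.69 and 10.34 in naive mice, so the 8 OVA arrays spanned under 0.2 log2 units.

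At 24 h Ighm was at 14.01, 14.18 and 14.35 in OVA saline mice, against 8.51, 9.42 and 10.07 in naive saline mice. With buffer it was at 13.40, 14.06 and 14.34 in OVA mice, against 8.58, 9.19 and 9.87 in naive mice. In both pairs the lowest OVA array stood more than 3 log2 units above the highest naive array. With TSLP the OVA medians were 14.12, 14.17 and 14.05 at 150, 500 and 1500 ng, against naive medians of 9.80, 9.21 and 9.57. Every OVA array at 24 h was above every naive array of its pair.

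The mean OVA effect on this Ighm probe set was 4.22 log2 units (SE 0.11, adjusted p = 1.18e-70, 18.6-fold), and 4.32 without the 2 arrays against their label. The other 3 bright Ighm probe sets gave 4.61 (SE 0.11), 4.46 (SE 0.11) and 5.31 (SE 0.13, 39.7-fold). All 4 passed in 10 of 10 pairs, with differences of 3.44 to 6.14. Their deviations from group means tracked each other, with r of 0.974 to 0.998 over 75 OVA arrays and 0.961 to 0.991 over 72 naive arrays. The fifth probe set, 1425385_a_at, stayed between 5.26 and 6.27 on all arrays and passed in 0 of 10 pairs, so the probe sets given to Ighm disagree. The probe set of several symbols, 1427758_x_at, rose by 4.69 (SE 0.13) and passed in 10 of 10 pairs. The annotation names Ighm for the bright probe sets. Which heavy chain classes they read was not tested, so their rise cannot be assigned to IgM alone.

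Igha (IgA heavy chain) differed far less between OVA and naive lungs. On 1421653_a_at the lowest, median and highest levels over all arrays were 12.18, 13.62 and 14.26 in OVA mice, against 12.33, 13.09 and 13.86 in naive mice. The OVA and naive ranges overlapped over most of their length. At 6 h the OVA medians were 13.24 with saline, 13.14 with buffer and 13.35, 13.49 and 13.56 at 150, 500 and 1500 ng, against naive medians of 12.90, 13.32, 12.99, 13.40 and 12.79. At 24 h the OVA medians were 13.85, 13.49, 13.93, 13.89 and 13.68 in the same order, against naive medians of 13.15, 13.01, 13.19, 13.09 and 13.31. The OVA median was the lower one only with buffer at 6 h, where the groups overlapped.

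The 3 Igha probe sets rose by 0.44 (SE 0.06, adjusted p = 3.76e-12), 0.47 (SE 0.06) and 0.57 (SE 0.07) in the mean over pairs. They agreed closely with each other, with r of 0.987 to 0.997 in OVA and in naive mice. They passed in 5, 5 and 4 of the 10 pairs, among them saline, 150 ng and 500 ng at 24 h and 1500 ng at 6 h. The highest difference of an Igha probe set in a pair was 1.01.

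Jchain (1424305_at, the polymer link) lay between Ighm and Igha in the size of its change. At 6 h it was at 11.23, 12.56 and 13.10 in OVA saline mice, against 9.61, 9.77 and 11.16 in naive saline mice. With buffer it was at 11.15, 12.31 and 12.63 in OVA mice, against 10.12, 10.61 and 11.32 in naive mice. The saline groups lay apart, if narrowly, and the buffer groups overlapped through 1 naive array with gullet keratins, without which the highest naive level was 10.84. With 150 ng it was at 11.18, 12.42 and 12.97 in OVA mice, against 10.11, 10.32 and 11.55 in naive mice. With 500 ng it was at 9.86, 12.57 and 12.94 in OVA mice, against 9.74, 11.24 and 12.08 in naive mice. Both of these pairs overlapped, and without the 2 arrays against their label the 500 ng pair still did, with 11.14 to 12.94 in OVA mice and 9.74 to 11.84 in naive mice. With 1500 ng it was at 12.42, 12.64 and 13.03 in OVA mice, against 9.51, 10.04 and 10.63 in naive mice, with a clear gap.

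At 24 h Jchain was higher in every OVA array than in every naive array of its pair. It was at 12.75, 13.20 and 13.58 in OVA saline mice, against 10.29, 10.68 and 11.12 in naive saline mice. With buffer it was at 11.55, 12.90 and 13.49 in OVA mice, against 10.08, 10.46 and 11.22 in naive mice. The buffer group held the widest OVA spread at this time, with an SD of 0.75. With TSLP the OVA medians were 13.03, 13.11 and 12.98 at 150, 500 and 1500 ng, against naive medians of 10.94, 10.82 and 10.79. Jchain rose by 2.05 in the mean over pairs (SE 0.09, adjusted p = 2.86e-46, 4.16-fold), and by 2.10 without the 2 arrays against their label. It passed in 10 of 10 pairs, from 0.96 with 500 ng at 6 h to 2.68 with 1500 ng at 6 h. The 0.96 is that of the pair holding the 2 arrays against their label.

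The OVA effects of these 3 genes differed from each other in every pair. The effect on Ighm exceeded that on Igha by 3.21 to 4.29 log2 units, and that on Jchain by 1.24 to 2.65. The effect on Jchain exceeded that on Igha by 0.86 to 1.97. Two-sided exact permutation tests of these differences, 30 in all and adjusted over the 30, passed in 10 of 10 pairs for each of the 3 comparisons, with a highest adjusted p of 0.0201. That p and the 0.86 were those of 500 ng at 6 h, with the 2 arrays against their label included. Naive group medians were 9.19 to 10.33 for Ighm, 9.77 to 11.24 for Jchain and 12.79 to 13.40 for Igha. The highest value on any array was 15.1. Whether the upper end of the scale limited any of these rises was not tested.

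**Figure D2:**
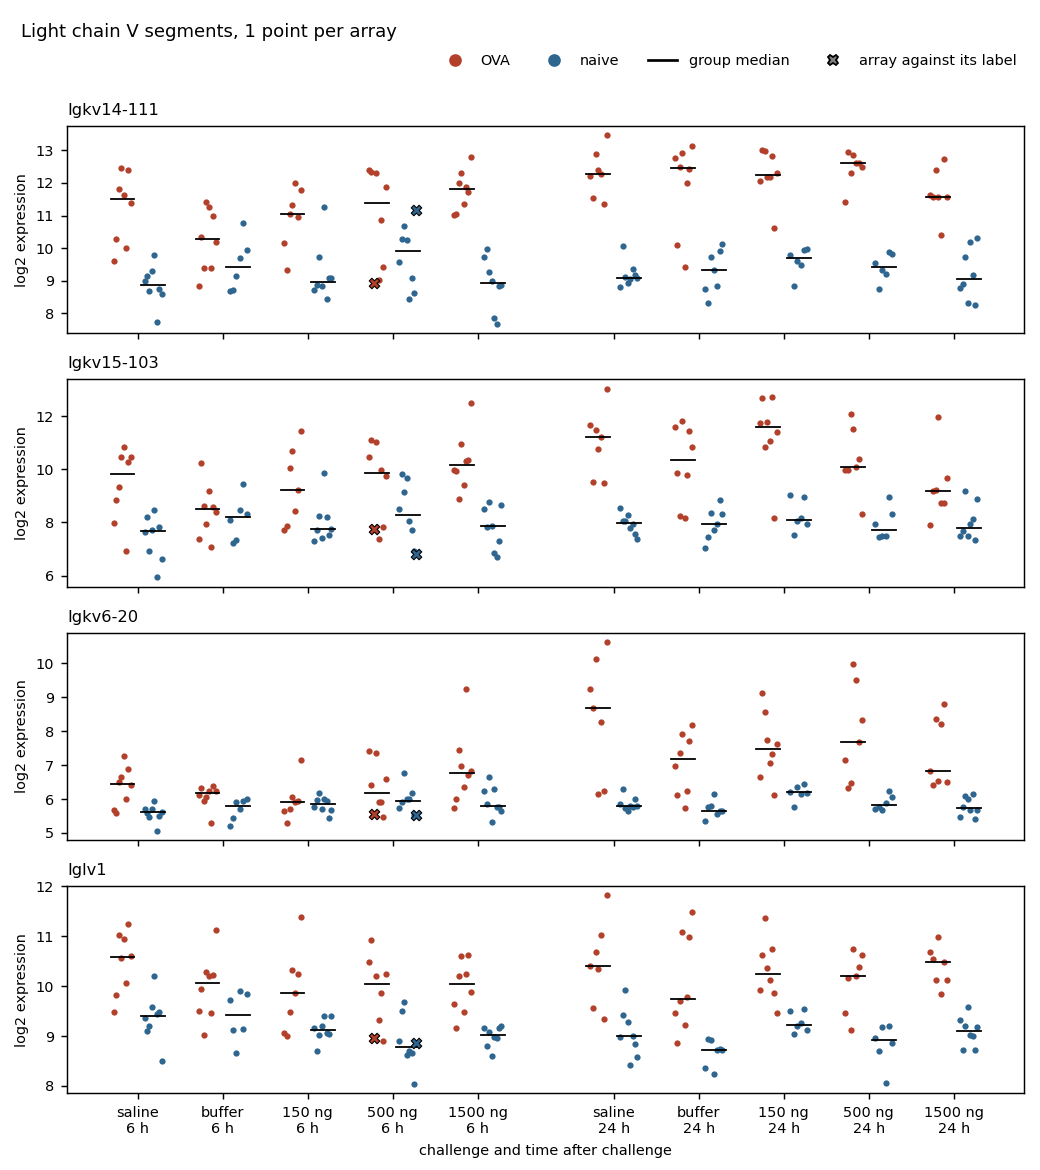
Log2 expression of the 4 light chain V segments on each array, by challenge and time after challenge, with OVA mice left of naive mice and bars at group medians. Igkv15-103 and Igkv6-20 points scatter widely among OVA arrays of a single group, with group SDs of up to 1.53 and 1.76, and naive points of Igkv6-20 stay between 5.07 and 6.76. Crosses mark the 2 arrays that went against their label.

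Among the light chain V segments, Igkv14-111 had the largest mean difference. Over all arrays its lowest, median and highest levels were 8.85, 11.81 and 13.46 in OVA mice, against 7.67, 9.15 and 11.26 in naive mice. With 1500 ng at 6 h it was at 11.00, 11.81 and 12.79 in OVA mice, against 7.67, 8.93 and 9.96 in naive mice, and the groups lay apart. With buffer at 6 h it was at 8.85, 10.27 and 11.41 in OVA mice, against 8.69, 9.42 and 10.78 in naive mice, and the groups overlapped. The highest naive level was that of a gullet array, and without the 2 gullet arrays of that group the highest was 9.95, which still overlapped. It rose by 2.27 in the mean over pairs (SE 0.14, adjusted p = 8.86e-31, 4.82-fold) and passed in 9 of 10 pairs, buffer at 6 h being the exception. In 5 of 10 pairs the groups did not overlap.

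Igkv15-103 was at 6.92, 9.97 and 13.03 over the OVA arrays, against 5.94, 7.95 and 9.84 over the naive arrays. Its OVA medians ran from 8.50 with buffer at 6 h to 11.57 with 150 ng at 24 h, while its naive medians stayed within 7.69 to 8.28. It rose by 1.92 (SE 0.18, adjusted p = 4.85e-19) and passed in 8 of 10 pairs. Its SD within groups, pooled over all 20, was 1.08, larger than for 99.7% of probe sets, and in 8 of 10 pairs the groups overlapped. Mice of a single OVA group thus differed by several log2 units in this segment, as with saline at 6 h, where OVA arrays ran from 6.92 to 10.83.

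Igkv6-20 was at 5.29, 6.57 and 10.62 over the OVA arrays, against 5.07, 5.77 and 6.76 over the naive arrays. The largest levels were those of OVA saline mice at 24 h, with a lowest, median and highest of 6.14, 8.68 and 10.62, against 5.65, 5.80 and 6.29 in naive saline mice. The median of the group SDs was 0.94 in OVA mice and 0.25 in naive mice. It rose by 1.16 (SE 0.12, adjusted p = 1.08e-15) and passed in 6 of 10 pairs, all 5 at 24 h and 1500 ng at 6 h. Iglv1, a lambda V segment, was at 8.86, 10.20 and 11.82 over the OVA arrays, against 8.04, 9.07 and 10.21 over the naive arrays. Its rise of 1.09 (SE 0.09, adjusted p = 3.86e-21) passed in 9 of 10 pairs, although in 9 of 10 the groups overlapped.

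**Figure D3:**
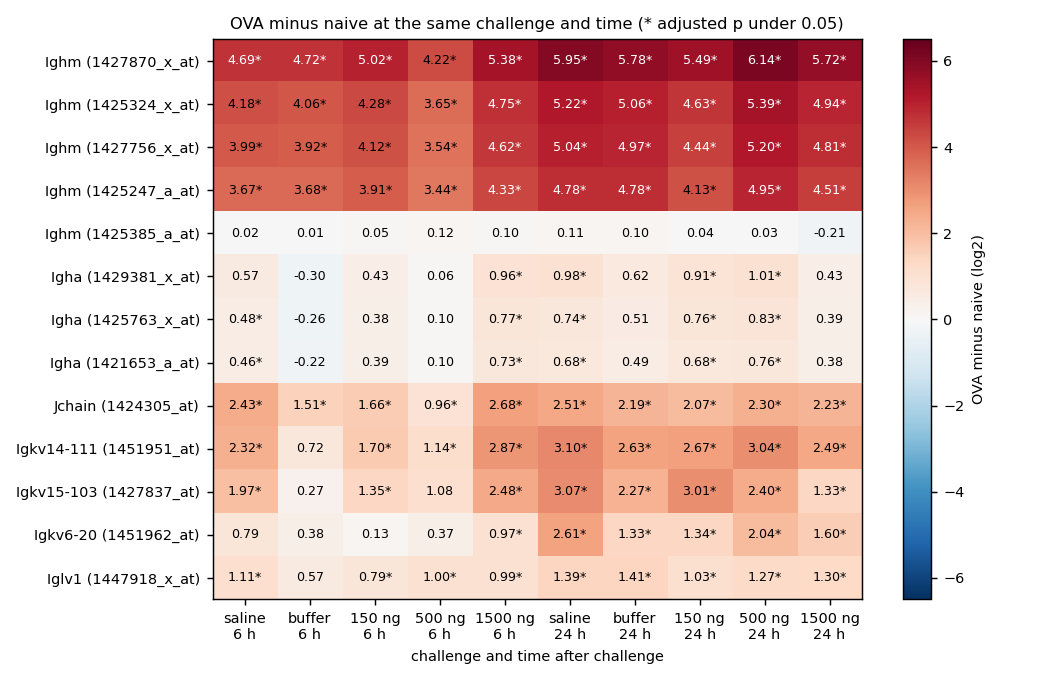
Log2 difference between OVA and naive mice for each of the 13 probe sets (down) at each challenge and time (across), with the value printed in each cell and a star where the adjusted p was under 0.05. The 4 bright Ighm probe sets and Jchain are starred in all 10 columns, and 1425385_a_at in none.

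By pair, the number of probe sets that passed was lower with buffer at 6 h than in any other pair. At 6 h, 10 of 13 rose with saline (8.76% of all probe sets tested), 5 with buffer (12.7%), 8 with 150 ng (19.5%), 7 with 500 ng (14.2%) and 12 with 1500 ng TSLP (16.3%). At 24 h, 12 rose with saline (11.1%), 9 with buffer (3.4%), 12 with 150 ng (13.8%), 12 with 500 ng (13.2%) and 9 with 1500 ng (17.0%). None fell in any pair. The 5 that passed with buffer at 6 h were the 4 bright Ighm probe sets and Jchain. All 12 probe sets other than 1425385_a_at passed in 4 pairs: 1500 ng at 6 h and saline, 150 ng and 500 ng at 24 h. Every OVA array lay above every naive array for 5, 4, 4, 0 and 7 of 13 probe sets at 6 h, with the challenges in the same order, beside 0.849%, 1.64%, 3.67%, 0.99% and 3.46% of all probe sets. At 24 h this held for 10, 5, 8, 10 and 8 of 13, beside 4.28%, 0.7%, 5.33%, 6.25% and 4.76%. The 0 at 500 ng and 6 h includes the 2 arrays against their label, and without them 4 of 13 lay apart, beside 3.33%. With buffer at 6 h, 5 of 13 lay apart without the gullet arrays, beside 3.57%.

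With TSLP set against buffer, few of these genes passed the test. The 3 doses of a set share their buffer group. In OVA mice at 6 h, 0 of 13 passed at 150 ng (0.168% of all probe sets passed in either direction) and 0 at 500 ng (39.3%). In OVA mice at 24 h, 0 passed at 150 ng (7.61%), 500 ng (8.64%) and 1500 ng (35.5%). In naive mice at 6 h, 0 passed at 150 ng (26.0%), 500 ng (40%) and 1500 ng (14.2%), and at 24 h 0 at 150 ng (0.421%), 500 ng (0.0%) and 1500 ng (1.54%). Over these 11 comparisons the log2 differences ran from -0.88 to 1.08, and 12 of 143 had an unadjusted p under 0.05 by limma. The lowest adjusted p was 0.0609, for Igha at 1500 ng in naive mice at 6 h.

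The 500 ng comparisons at 6 h rest in part on the 2 arrays against their label. When fitted without the 2 arrays against their label, 4 of 13 were called lower in naive mice, beside 22.4% of all probe sets. They were the 4 bright Ighm probe sets, by 0.67 to 0.87 log2 units, with adjusted p of 0.00304 to 0.0254. The naive array left out was picked in part for its high Ighm level, so leaving it out lowers naive Ighm by construction. That fit therefore cannot decide whether TSLP changed Ighm. With all arrays, 0 of 13 passed at 500 ng in naive mice at 6 h. In the fit of all arrays, 5 of 6 gullet genes and 3 of 11 B cell genes were also lower in this comparison. The median beta-actin difference was 1.39 with 500 ng and 2.17 with buffer in naive mice. With the beta-actin covariate on all arrays, 0 of 13 passed. The part of these measures in the result was not tested. In OVA mice, 1 probe set of Igha (1429381_x_at) then rose by 0.58 (adjusted p = 0.0399), where 19.8% of all probe sets were called higher. The median beta-actin difference was 1.84 with 500 ng and 2.57 with buffer in OVA mice.

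The exception was 1500 ng TSLP in OVA mice at 6 h, where 6 of 13 rose against 30.0% of all probe sets tested called higher. They were the 3 kappa V segments and the 3 Igha probe sets. Igkv15-103 was at 8.89, 10.14 and 12.51 with TSLP, against 7.06, 8.50 and 10.22 with buffer, a difference of 1.86 (SE 0.54, adjusted p = 0.00164). Igkv14-111 was at 11.00, 11.81 and 12.79 with TSLP, against 8.85, 10.27 and 11.41 with buffer, a difference of 1.54 (SE 0.43, adjusted p = 0.00121). In both, all 8 TSLP arrays lay above the buffer mean, and the groups overlapped. Igkv6-20 was at 5.74, 6.76 and 9.25 with TSLP, against 5.29, 6.18 and 6.39 with buffer (0.83, SE 0.37, adjusted p = 0.0431). The Igha probe sets differed by 0.47, 0.51 and 0.70, with 1421653_a_at at 13.24, 13.56 and 13.86 with TSLP, against 12.18, 13.14 and 13.56 with buffer. Ighm differed by 0.14 to 0.35 on its bright probe sets and Jchain by 0.52 (SE 0.27, adjusted p = 0.0785), none of which passed.

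RNA quality moved with this comparison. The beta-actin difference was 1.06, 1.26 and 1.49 (lowest, median and highest) with 1500 ng TSLP, against 2.26, 2.57 and 2.96 with buffer, with no overlap. With the beta-actin difference as a covariate, 0 of the 6 passed (2.23% of all probe sets were called higher), and the values were 0.74 for Igkv15-103 (adjusted p = 0.569), 0.65 for Igkv14-111 (adjusted p = 0.529) and 0.46 to 0.58 for the Igha probe sets (adjusted p of 0.220 to 0.247). Among other cell types, 7 of 14 plasma cell genes rose and none fell, 4 of 11 B cell genes fell and none rose, and 4 of 8 T cell genes rose, where 30.6% of all probe sets were called lower. The mean level of the 14 plasma cell genes was 10.13 to 10.65 with TSLP, against 9.63 to 10.22 with buffer. The mean level of the 11 B cell genes was 9.36 to 10.98 with TSLP, against 9.19 to 10.97 with buffer. Their part in the result was not tested. Plasma cell genes also rose in OVA mice where 0 of 13 members passed. At 6 h, 6 of 14 rose at 500 ng (21.2% of all probe sets called higher) and 0 at 150 ng (0.13%). At 24 h, 8 rose at 150 ng (4.93%) and 7 at 500 ng (5.06%). With 1500 ng at 24 h, 6 rose (17.9%) and 2 fell (17.6% called lower).

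The effect of 1500 ng at 6 h was more positive in OVA mice than in naive mice for 6 of 13 probe sets (16.9% of all probe sets were called higher). The difference between the effects was 2.20 for Igkv15-103 (SE 0.79, adjusted p = 0.0242), 2.14 for Igkv14-111 (SE 0.63, adjusted p = 0.00633) and 1.17 for Jchain (SE 0.39, adjusted p = 0.0158). For Igha it was 0.94, 1.03 and 1.26, with adjusted p of 0.00215 to 0.00237. In naive mice the effects themselves ran from -0.64 to 0.24 and none passed. For these 6 probe sets the naive effect was below 0, so part of each difference came from lower naive levels with TSLP. The naive buffer group held 2 gullet arrays. Without the gullet arrays, 3 of 13 fell in naive mice, beside 14.7% of all probe sets called lower. In the comparison of the effects 5 of 13 then passed, beside 12.1% called higher. With the beta-actin covariate on all arrays, the 3 Igha probe sets passed in this comparison (3.58% of all probe sets were called higher), at 0.93, 1.02 and 1.18. Jchain (1.08, adjusted p = 0.0936) and the V segments did not. At 24 h, 0 of 13 passed (4.03%), and 1 had an unadjusted p under 0.05 by limma.

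Buffer set against saline gave no call in any of 4 comparisons. The background was 0.891% of all probe sets in OVA mice at 6 h, 0.394% in OVA mice at 24 h, 13.9% in naive mice at 6 h and 0.00765% in naive mice at 24 h. The differences ran from -1.44 to 0.73, and 7 of 52 had an unadjusted p under 0.05 by limma. The lowest was that of Igkv6-20 in OVA mice at 24 h. It was at 5.73, 7.16 and 8.17 with buffer, against 6.14, 8.68 and 10.62 with saline (-1.44, SE 0.38, adjusted p = 0.0527).

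**Figure D4:**
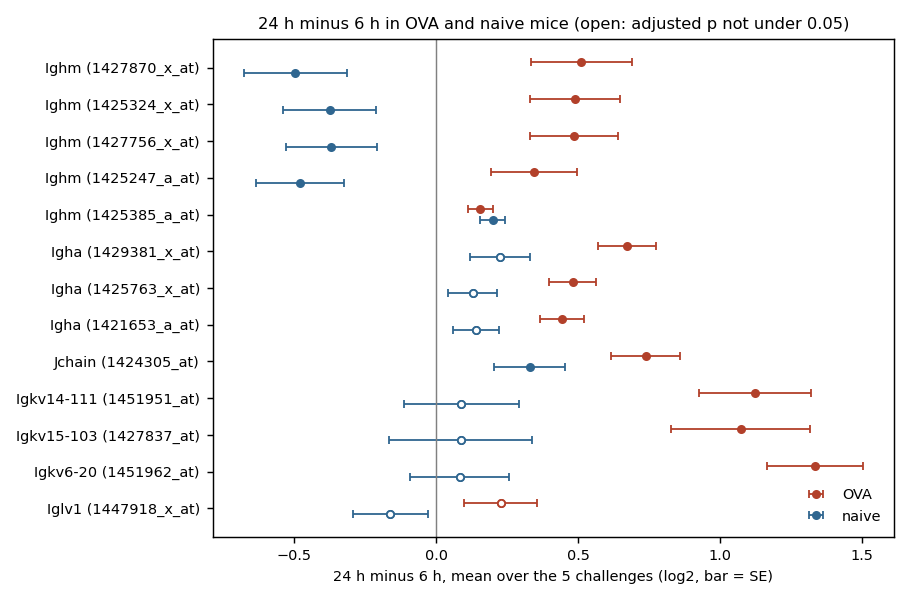
Log2 difference between 24 h and 6 h, averaged over the 5 challenges, for each probe set in OVA and naive mice, with SE bars. Filled points had an adjusted p under 0.05. OVA points lie to the right of 0 for every probe set, and naive points of the 4 bright Ighm probe sets lie to the left.

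The change over time after challenge was larger in OVA mice than in naive mice for some of these genes. Averaged over the 5 challenges, 12 of 13 probe sets were higher at 24 h than at 6 h in OVA mice, where 31.4% of all probe sets were called higher. Igkv6-20 rose by 1.34 (SE 0.17, adjusted p = 1.11e-11), Igkv14-111 by 1.12 (SE 0.20, adjusted p = 3.05e-07) and Igkv15-103 by 1.07 (SE 0.25, adjusted p = 6.46e-05). Jchain rose by 0.74 (SE 0.12), Igha by 0.44 to 0.67, the bright Ighm probe sets by 0.34 to 0.51 and 1425385_a_at by 0.16. Iglv1 differed by 0.23 (SE 0.13, adjusted p = 0.110).

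In naive mice 2 of 13 rose, against a background of 29.4%, and 4 of 13 fell, against 36.6%. The 4 that fell were the bright Ighm probe sets, by 0.37 to 0.50 log2 units, and by 0.26 to 0.37 without the 2 arrays against their label. With the beta-actin difference as a covariate, 0 of 13 were called lower in naive mice, beside 27.0% of all probe sets. With quantile normalization, 2 of 13 were called lower. The 2 that rose were Jchain (0.33, SE 0.13, adjusted p = 0.0159) and 1425385_a_at (0.20, SE 0.04, adjusted p = 4.97e-05). The naive Ighm medians on 1425247_a_at were 9.42 at 24 h and 10.33 at 6 h with saline, and 9.19 at 24 h and 10.32 at 6 h with buffer.

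The change over time differed between OVA and naive mice for 6 of 13 probe sets, where 2.62% of all probe sets were called higher. The difference was 1.25 for Igkv6-20 (SE 0.24, adjusted p = 8.08e-04), 1.04 for Igkv14-111 (SE 0.28, adjusted p = 0.0228) and 0.82 to 1.01 for the bright Ighm probe sets. Without the 2 arrays against their label, the Ighm values were 0.61 to 0.75, and the same number passed. Igkv15-103 had a difference of 0.99 (SE 0.35, adjusted p = 0.0897), Igha 0.30 to 0.45 and Jchain 0.41, none of which passed. The beta-actin difference moved with time, being lower at 24 h. With it as a covariate, 9 of 13 were higher in OVA mice, beside 10.9% of all probe sets, and 1 in naive mice (1425385_a_at), beside 19.4%. In the comparison of the changes 5 were higher, beside 2.05%.

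Genes that mark antibody-producing cells were set beside the members. In the mean over pairs, 11 of 14 plasma cell genes rose and 3 fell in OVA mice (median 0.53), beside 27.5% of all probe sets called higher and 43.0% lower. Eaf2 rose by 2.13 (SE 0.11), Mzb1, a chaperone of antibody assembly, by 1.93 (SE 0.10), Derl3, of protein disposal in the endoplasmic reticulum, by 1.60 (SE 0.08), and Irf4, a transcription factor that plasma cells need, by 1.24 (SE 0.07). Sec11c, a subunit of the signal peptidase, rose by 0.41 (SE 0.02). The 3 that fell were Sdc1 (by 0.25), Prdm1 (by 0.22) and Creb3l2 (by 0.09), chosen for naming after their values were seen. The first 2 encode the surface marker CD138 and the regulator Blimp-1. Which lung cells the transcripts of this list came from, for genes that rose or fell, was not tested. Per array, the mean of the 14 genes was 9.58 to 11.43 in OVA mice, against 9.43 to 10.02 in naive mice, and the ranges overlapped.

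B cell genes had a smaller median difference. Of 11 measured, 8 rose and none fell (median 0.20), beside the same 27.5% and 43.0% of all probe sets. Fcrla was at 0.46 (SE 0.08), Spib at 0.42 (SE 0.07) and Ms4a1, which encodes CD20, at 0.31 (SE 0.07). In single pairs, B cell genes passed only with 500 ng at 6 h (3 of 11), 500 ng at 24 h (2) and 1500 ng at 24 h (1). Their mean per array was 8.68 to 10.98 in OVA mice, against 8.90 to 10.59 in naive mice. Over time in OVA mice, 12 of 14 plasma cell genes were higher at 24 h and none lower, beside 31.4% of all probe sets called higher. Of 11 B cell genes, 5 were lower and none higher, beside 35.7% called lower. The difference between the lists was not tested. Of 8 T cell genes 7 rose with sensitization (median 0.38), with the costimulator Icos at 1.20 (SE 0.07). Of 5 genes of lymphoid tissue 4 rose (median 0.41), among them Lta at 0.76 (SE 0.07), and of 6 gullet genes 0 passed, with none at an adjusted p under 0.11.

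Genes around antibody production also differed. Of 10 germinal centre and class switch genes, 8 rose and 2 fell (median 0.32). Ung, which repairs uracil during class switching, rose by 0.67 (SE 0.04), and Il4, a cytokine that directs switching, by 0.72 (SE 0.06). The 2 that fell were S1pr2 (-0.20, SE 0.02) and Fas (-0.20, SE 0.03), chosen for naming after their values were seen. Of 7 survival factors and receptors 6 rose and 1 fell (median 0.59). Tnfsf13b (BAFF) rose by 0.73 (SE 0.04), Il5 by 1.20 (SE 0.09) and Tnfrsf17 (BCMA, also on the plasma cell list) by 0.86 (SE 0.07). Cxcr4 was the 1 that fell (-0.10, SE 0.02), also named after its value was seen.

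Of 12 genes of Fc receptors and immunoglobulin transport, 7 rose and 2 fell (median 0.17). Pigr, the receptor that carries polymeric IgA and IgM across epithelium, rose by 1.55 (SE 0.07), Fcgr2b, the inhibitory IgG receptor, by 1.20 (SE 0.06), and Fcamr, a receptor of IgA and IgM, by 0.76 (SE 0.06). The 2 that fell were Fcgr1 (-0.30, SE 0.05) and Fcmr (-0.18, SE 0.06), chosen for naming after their values were seen. Of 14 genes of the secretory machinery 13 rose and none fell (median 0.23), with Edem1, which marks misfolded glycoproteins for disposal, at 1.05 (SE 0.06) and Sdf2l1 at 0.79 (SE 0.07). Over all probe sets tested 27.5% were called higher and 43.0% lower in this contrast.

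**Figure D5:**
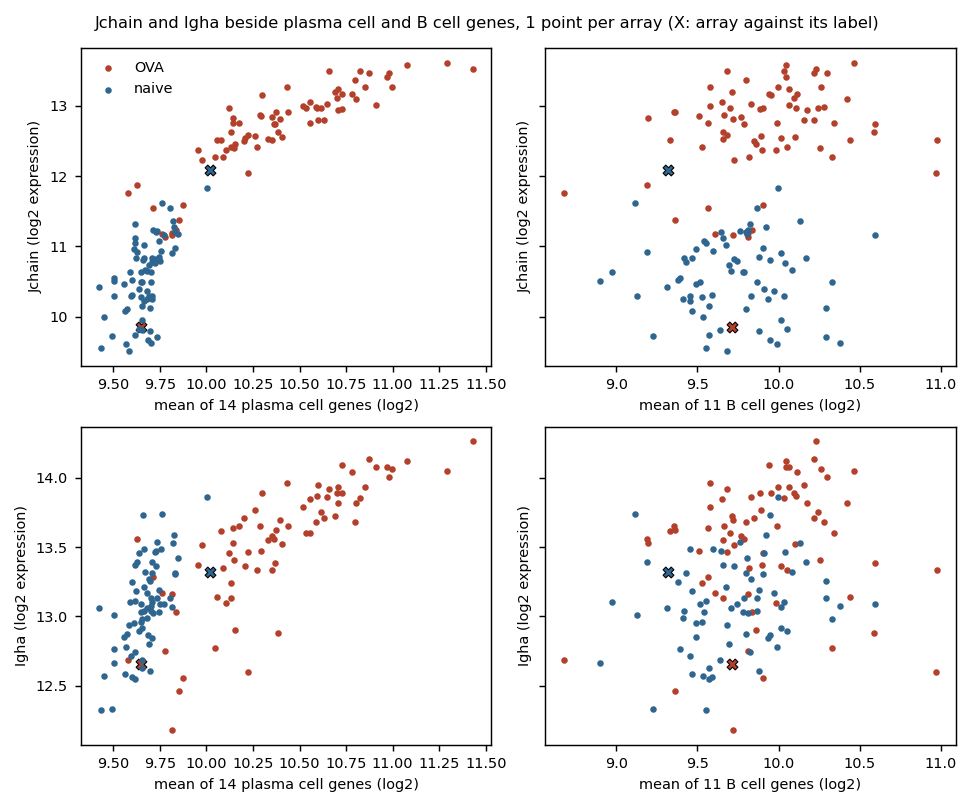
Log2 expression of Jchain (top) and Igha (bottom) on each array against the mean of 14 plasma cell genes (left) and of 11 B cell genes (right), with OVA and naive arrays in separate colours and crosses for the 2 arrays against their label. Jchain rises with the plasma cell genes among OVA arrays, and the B cell genes cover nearly the same span in OVA and naive arrays.

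Within OVA groups, mice with more Jchain also had more Ighm and Igha. Correlations were computed on deviations from group means, without the 2 arrays against their label, as 22 relations with permutation p adjusted over them, 1e-05 being the smallest unadjusted p that 100000 permutations can give. Among 75 OVA arrays, Jchain and Ighm had r = 0.885 (rho = 0.889, permutation p = 1e-05, adjusted p = 1.69e-05), and r = 0.870 without the 2 farthest arrays. Among 72 naive arrays they had r = 0.177 (rho = 0.0933, permutation p = 0.137 and 0.442 for rho), and r = 0.121 without the 2 farthest. Jchain and Igha had r = 0.785 in OVA arrays (rho = 0.813, permutation p = 1e-05) and r = 0.547 in naive arrays (rho = 0.492, permutation p = 1.7e-04). They were 0.806 and 0.502 without the 2 farthest arrays. The difference between OVA and naive correlations was not tested.

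Mzb1 tracked every member in OVA arrays, with r from 0.597 for Igkv15-103 to 0.870 for Jchain, with permutation p of at most 2e-05 and adjusted p of at most 3.14e-05. Leaving out the 2 farthest arrays gave 0.592 for Igkv15-103 and 0.852 for Jchain, and rho was 0.581 and 0.882. In naive arrays Mzb1 had r = 0.672 with Igha (rho = 0.647, permutation p = 1e-05, and 0.627 without the 2 farthest) and r = 0.387 with Jchain (rho = 0.319, permutation p = 0.00908, adjusted p = 0.00999, and 0.388 without the 2 farthest). With the other genes in naive arrays, r was 0.308 for Ighm, 0.421 for Igkv14-111, 0.583 for Igkv15-103, 0.457 for Igkv6-20 and 0.560 for Iglv1. In the same order, rho was 0.252, 0.443, 0.558, 0.379 and 0.473, and r was 0.236, 0.399, 0.520, 0.447 and 0.450 without the 2 farthest. The adjusted permutation p were at most 0.00874 for r and 0.0465 for rho, so Mzb1 tracked all 7 genes in naive arrays also. The B cell gene Ms4a1 and Jchain had r = 0.443 in OVA arrays (rho = 0.513, permutation p = 7e-05, adjusted p = 1.03e-04), and 0.518 without the 2 farthest. In naive arrays they had r = 0.268 (rho = 0.227, permutation p = 0.0648, adjusted p = 0.0679), and 0.243 without the 2 farthest.

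Over the 20 group means, which OVA and naive groups split into separate ranges, the genes most like Jchain among 22105 probe sets outside the members were Mzb1 (r = 0.977), Mmp12 (0.975), Cip2a (0.974), Gatm (0.973) and C1qc (0.969). Those most like Ighm were Gcnt3 (0.985), Fcgbp (0.983), Chia1 (0.983), Chil4 (0.982) and C1qb (0.982). Those most like Igha were Evi2a (0.946), Slc16a6 (0.936), Myo5a (0.935), Spcs3 (0.931) and Clec4a3 (0.926). These values describe the group means, which share the split by sensitization.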

How the data were processed

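The authors deposited log2 expression values of 26166 probe sets per array, for 76 OVA and 73 naive arrays, made with RMA per the submitters' processing notes; the RMA version is not given in the sources used here. RMA corrects background, normalizes arrays to each other and summarises the probes of a set. Levels of different probe sets were therefore not read as relative amounts of transcript. They served to call probe sets bright or dim and to pick the brightest of a gene. The values were used as deposited, between 2.96 and 15.1. Probe sets were named from the platform annotation: 22892 had 1 symbol, 260 several and 3014 none, and positions came from RefSeq.

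A model with 1 mean per group was fitted to all arrays (limma 3.58.1, R 4.3.3), leaving out 10 control probe sets, with two-sided tests, Benjamini-Hochberg adjustment and a threshold of 0.05. The fit was tested on simulated data. Members and gene lists were chosen with earlier results of these data known. Constant regions, Jchain and V segments past the threshold are named, with at most 5 genes of each list, those with the smallest p in the mean OVA contrast, and 5 genes by likeness. List genes named beyond this rule are marked as chosen after their values were seen. Where a gene had several probe sets, the brightest stands for it. Correlations used 100000 permutations within groups.

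Alternatives were quantile normalization, a beta-actin covariate, a replicate block, leaving out the 6 arrays with gullet keratins and, for the mean OVA contrast, 1 probe set per gene, a trended robust prior, array weights and leaving out the dimmest 40% of probe sets. Leaving out the 2 arrays against their label was added after seeing the data. The number of arrays limits the precision. No 2 arrays held identical values.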

Additional observations from a re-analysis of the deposited data

Results flagged for a closer look

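Of 140 combinations of a gene and a group, 11 had an array far from the rest of its group, where chance gives about 1 in 20. Ighm was at 9.50 on OVA replicate 3 at 500 ng and 6 h and at 13.56 on naive replicate 8 at the same dose and time, the 2 arrays that went against their label. Jchain was at 11.16 on replicate 5 of the naive saline group at 6 h, the highest of 8. On replicate 5 of the naive 150 ng group at 6 h, Igkv14-111 was at 11.26 and Igkv15-103 at 9.84, both the highest of 8, on an array with gullet keratins. On replicate 7 of the OVA 150 ng group at 24 h, Igkv14-111 was at 10.62 and Igkv15-103 at 8.18, both the lowest of 8. Igkv14-111 was also at 10.07, the highest, in the naive saline group at 24 h and at 11.40, the lowest, in the OVA 500 ng group at 24 h. Igkv6-20 was at 5.29, the lowest, in the OVA buffer group at 6 h and at 7.14, the highest, in the OVA 150 ng group at 6 h.

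The effect of 1500 ng TSLP at 6 h differed between OVA and naive mice by an interaction test for the 3 Igha probe sets (0.94, 1.03 and 1.26 log2 units), Jchain (1.17), Igkv15-103 (2.20) and Igkv14-111 (2.14). The change over time differed between OVA and naive mice for the bright Ighm probe sets (0.82, 0.85, 0.86 and 1.01), Igkv14-111 (1.04) and Igkv6-20 (1.25).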

How the results depend on the processing

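Of the 13 counts that moved, 1 probe set per gene gave 7 of 7 in the mean OVA contrast. The beta-actin covariate gave 0 with 1500 ng in OVA mice at 6 h, 3 in its comparison with naive mice, 1 lower for buffer against saline in OVA mice at 24 h and 1 in naive mice over time. Leaving out the gullet arrays gave 1 lower at 150 ng and 3 lower at 1500 ng in naive mice at 6 h, and 1 higher for buffer against saline there; quantile normalization gave 2 lower at 1500 ng. Leaving out the 2 arrays against their label gave 1 higher at 500 ng in OVA mice and 4 lower in naive mice at 6 h, and 1 lower for buffer against saline in OVA mice at 24 h. The 4 lower were Ighm probe sets, and these arrays were picked in part by Ighm. Apart from these, 152 counts stayed within 1.5 times. Of single values, 426 kept their direction and side of the threshold and 21 lost the call, 18 of these with the beta-actin covariate. None reversed. The causes were not tested.

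The replicate block gave 1 lower for buffer against saline in OVA mice at 24 h, Igkv6-20 at -1.47 (adjusted p = 0.0446), and moved no other count by over 1.5 times. The numbers name different animals: arrays of the same number in other groups had a mean correlation of deviations of 0.0010, against 0.0025 for other numbers, and 16 arrays matched best with their own number.

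Quantile normalization moved the share of calls that were higher, over all probe sets, by over 10 points in 7 comparisons. It gave 49.2% and the deposited scale 36.5% for OVA against naive with buffer at 6 h. It gave 54.8% and 64.8% for 150 ng in OVA mice at 24 h, 54.0% and 43.1% for 1500 ng in naive mice at 6 h, and 60.5% and 71.4% for the difference in the change over time. For buffer against saline it gave 38.2% and 24.0% in OVA mice at 6 h, 27.5% and 16.5% in OVA mice at 24 h, and 45.7% and 58.1% in naive mice at 6 h.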
